A study of Mus musculus with 6 samples.

Results

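Hepatocyte identity rests on a small set of DNA-binding proteins, and 8 genes that encode them were followed here by symbol: Hnf4a, Foxa1, Foxa2, Foxa3, Onecut1, Onecut2, Prox1 and Gata4. They are 8 of the 23282 genes in the deposited count table, and all 8 were found. The RNA came from primary hepatocytes of C57BL6/N mice, whose age and number are not given, with 3 samples left untreated (control) and 3 treated for 24 h with recombinant IL-1β, a cytokine of innate immunity. The series title speaks of metabolic stress, and the labels name no agent other than IL-1β. The cells were released by collagenase perfusion, filtered, washed and plated for 3 h before treatment, and no step is described that would remove all other liver cells. The deposited design text speaks of 2 samples per group but names 3, and all 3 were used. The labels and methods give neither the dose of the sequenced cultures nor whether the 3 samples of a group came from separate mice. The p-values therefore measure the spread between these samples, which may be technical.

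HNF4A is a nuclear receptor that binds fatty acids and keeps a wide programme of lipid, clotting and bile acid genes active in hepatocytes. FOXA1, FOXA2 and FOXA3 are forkhead proteins that open compacted chromatin, so that other factors can bind, and they share most of their recognition sequence. ONECUT1 (HNF6) and ONECUT2 combine a cut domain with a homeodomain and act in liver and bile duct formation, PROX1 is a homeodomain protein needed for hepatoblasts to spread into the growing liver, and GATA4 is a zinc finger protein that works with FOXA factors at liver enhancers. In liver these genes regulate each other, and HNF1, ONECUT, FOXA, GATA and HNF4 sites in their promoters are part of that circuit.

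For Hnf4a, Foxa1, Foxa2 and Foxa3 the 250 bases before an annotated start are printed here. They are given 5′ to 3′ on the gene's strand, from RefSeq on the GRCm38.p6 build, and capitals mark matches to the short motifs named beneath. Hnf4a has a pair of promoters, with P1 the one used in adult liver and P2 lying upstream of it. Its gene model in the table begins at P1.
Hnf4a P2, chr2:163506607-163506856, plus strand: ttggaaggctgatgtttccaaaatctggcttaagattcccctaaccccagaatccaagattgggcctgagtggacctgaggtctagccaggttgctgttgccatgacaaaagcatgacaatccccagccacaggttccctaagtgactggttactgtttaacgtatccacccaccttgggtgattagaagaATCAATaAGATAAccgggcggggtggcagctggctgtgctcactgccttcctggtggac
Hnf4a P1, chr2:163546905-163547154, plus strand: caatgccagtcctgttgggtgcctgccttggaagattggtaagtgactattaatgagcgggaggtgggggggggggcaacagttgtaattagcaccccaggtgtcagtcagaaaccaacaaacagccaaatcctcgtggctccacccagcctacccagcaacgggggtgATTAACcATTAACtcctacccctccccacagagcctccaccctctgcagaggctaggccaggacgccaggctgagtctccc
Foxa1, chr12:57546112-57546361, minus strand: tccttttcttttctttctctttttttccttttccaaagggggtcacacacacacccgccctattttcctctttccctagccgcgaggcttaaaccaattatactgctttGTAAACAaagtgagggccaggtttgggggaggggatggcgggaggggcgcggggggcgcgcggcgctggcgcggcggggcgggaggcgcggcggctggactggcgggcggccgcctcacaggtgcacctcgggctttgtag
Foxa2, chr2:148046970-148047219, minus strand: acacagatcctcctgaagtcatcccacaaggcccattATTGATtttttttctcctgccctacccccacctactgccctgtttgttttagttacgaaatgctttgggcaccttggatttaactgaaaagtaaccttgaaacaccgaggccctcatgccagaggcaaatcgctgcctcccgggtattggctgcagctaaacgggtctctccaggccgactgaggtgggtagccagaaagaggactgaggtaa
Foxa3, chr7:19023540-19023789, minus strand: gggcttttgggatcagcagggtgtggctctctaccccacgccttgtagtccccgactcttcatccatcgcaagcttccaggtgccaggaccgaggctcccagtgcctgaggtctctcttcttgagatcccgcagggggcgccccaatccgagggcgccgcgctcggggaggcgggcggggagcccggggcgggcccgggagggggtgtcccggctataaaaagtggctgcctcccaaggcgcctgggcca

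The P2 window of Hnf4a holds an ONECUT motif (ATCAAT) from -59 to -54 and a GATA motif (AGATAA) from -52 to -47, counted from the start site. The P1 window holds a pair of HNF1 half-sites (GTTAAT) on the opposite strand, from -81 to -76 and from -74 to -69. The Foxa1 window carries a FOXA motif (TGTTTAC) on the opposite strand from -141 to -135, and the printed Foxa2 window an ONECUT motif on the opposite strand from -213 to -208. Foxa2 has 3 annotated starts, and the window printed is that of the most upstream one. Of the other windows, the one before the start at 148045464 holds a GATA motif from -183 to -178 and an HNF1 half-site on the opposite strand from -176 to -171, and the one before 148045948 holds no match. The Foxa3 window, with 68.8% G and C, holds none of the motifs searched. The windows of Onecut1 and Prox1, which are not printed, hold none either. Searched on both strands of 20781 windows of the same length, the HNF1 motif stood in 5.74%, ONECUT in 5.75%, GATA in 8.73% and FOXA in 2.64%. The HNF4 motif (CAAAGTCCA, 0.409% of windows), the C/EBP motif (TTGCGCAA, 0.226%), the NF-kB motif (1.44%) and the AP-1 motif (TGANTCA, 6.36%) were searched too, and none was found in the 10 windows of the 6 genes that had one. The matches did not overlap each other. A match describes letters in the sequence and is not a site shown to be bound, and the counts below do not tell the Hnf4a promoters apart, because 3′ reads begin at the other end of the transcript.

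RNA was measured by QuantSeq, which primes on the poly(A) tail and so yields about 1 fragment per mRNA, near its 3′ end. Levels are the count of a gene scaled to a common total of reads on tested genes (CPM) with TMM factors, and they were not divided by gene length for that reason. Total counts per sample were 9538741 to 11105408. A level of 3 counts, taken as the detection limit, was 0.269 to 0.321 CPM, which covers counting error only. The ribosomal RNA precursor Rn45s took 11.7% to 14.2% of counts per sample. IL-1β was compared with control by the quasi-likelihood test of edgeR, p-values being adjusted by Benjamini and Hochberg's method across the 11657 genes that passed its filter on low counts, and an adjusted p below 0.05 is named here a call. Of those genes 812 (6.97%) were called higher and 751 lower, so that 52.0% of calls were increases. With scaling by total counts alone 39.6% of calls were increases, and the median change of all genes on the log2 scale moved from -0.0018 to -0.055.

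Transcripts of hepatocytes dominated the samples. Alb, which encodes albumin, stood at 13476 to 16574 CPM over the 6 samples, and the 10 hepatocyte markers summed to 24899 to 25846 CPM in controls and 19803 to 20930 CPM after IL-1β. All 10 were tested, 7 were called lower (70.0%, against 6.44% of all tested genes) and none higher, with a median log2 fold change of -0.45. The 11 Kupffer cell markers summed to 210 to 241 CPM in controls and 214 to 244 CPM after IL-1β, mostly through Cd68. None of the 8 tested was called. Of their estimates 2 were below 0, and the median log2 fold change was 0.38. Clec4f, Vsig4 and Timd4, the 3 that were not tested, had 53, 17 and 2 counts in all samples together. The 10 endothelial markers summed to 87.5 to 94.1 CPM and 85.1 to 89.7 CPM, and the 10 stellate markers to 20.7 to 23.3 CPM and 22.3 to 28.7 CPM. The cholangiocyte list summed to 316 to 329 CPM and 237 to 240 CPM, but this was Sox9 and Spp1: the defining markers Krt19, Krt7 and Epcam had 11, 4 and 2 counts in all samples together. In RNA from a whole culture, fewer hepatocytes and less of a transcript per hepatocyte cannot be told apart.

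After IL-1β, 4 of the 8 identity factors were called lower and none higher. Hnf4a, Foxa3 and Prox1 fell by 47.1% to 51.3%, Onecut2 fell by 15.7%, and Foxa1, Foxa2, Onecut1 and Gata4 did not pass the test. All 8 passed the low-count filter. The hepatocyte markers were lower in the same samples, and the part of that in these values was not tested. The 4 calls are 50.0% of the factors, beside 6.44% of all tested genes called lower and 13.4% called in either direction. The median log2 fold change of the 8 was -0.37, beside -0.0018 over all tested genes, and all 8 estimates were below 0, as were those of 50.4% of tested genes. In 6 of the 8 every IL-1β sample was below every control, which was so for 14.2% of tested genes, while 28.2% had separate groups in either direction. For each of these 6 the exact two-sided permutation test gave p = 0.1, the smallest that 3 samples against 3 allow.

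**Figure D1:**
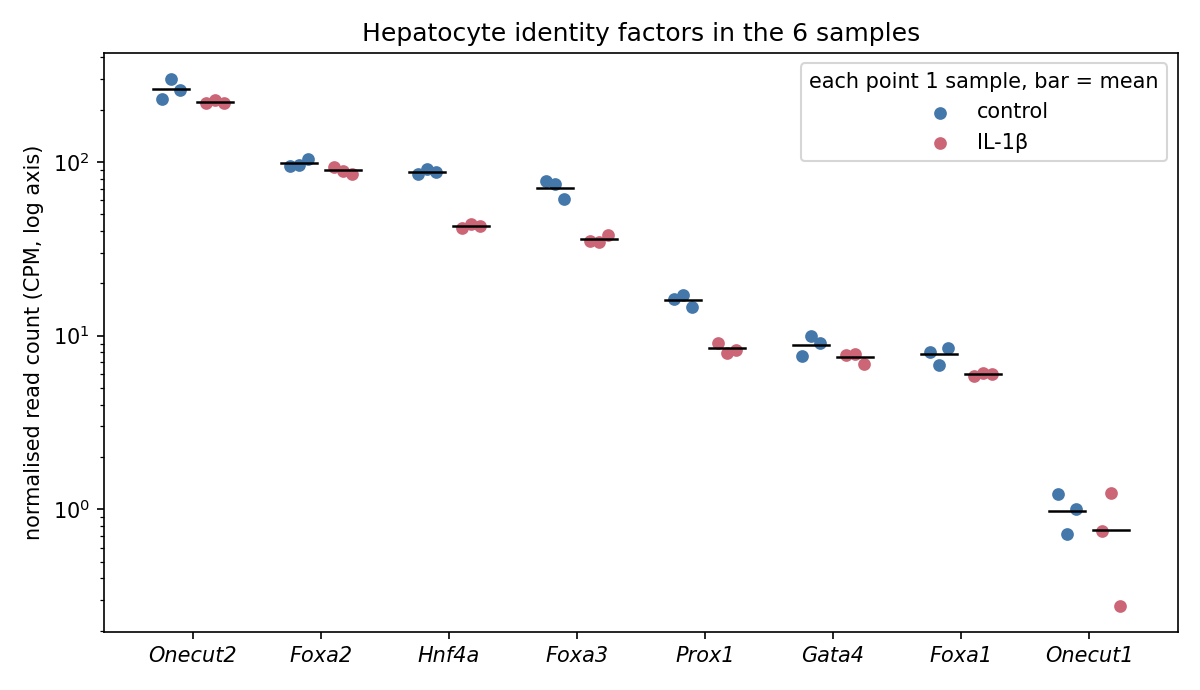
Level of each of the 8 factors in every sample, in CPM on a log axis, with control and IL-1β samples as separate points (n = 3 each) and group means as lines. The groups are apart by the widest margin for Hnf4a, Foxa3 and Prox1, and they overlap for Onecut1 and Gata4.

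Hnf4a (Entrez 15378, chromosome 2, 163547188 to 163572907, plus strand, GRCm38) stood at 84.6, 91.2 and 87.2 CPM in the control samples and at 41.7, 43.8 and 42.6 CPM after IL-1β. The 3 values within each group lay close together and the groups were far apart. The means were 87.7 ± 3.31 CPM and 42.7 ± 1.06 CPM (SD, n = 3 each), and the log2 fold change was -1.04 (standard error 0.087, 95% interval -1.22 to -0.86, edgeR adjusted p = 1.6e-09). It was the only one of the 8 that was called and at least 2-fold lower, which 1.51% of tested genes were. Its fold change ranked 245 from the lowest of 11657. HNF4G, the paralog of HNF4A that is known mainly from gut and kidney, had only 12 counts of its transcript in all samples together. The annotation gives 4 coding transcripts of Hnf4a with 4 different 3′ ends, for which the table has 1 row.

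Foxa3 (Entrez 15377, chromosome 7, 19013283 to 19023539, minus strand) encodes a FOXA protein of liver and gut that is made throughout adult life. It stood at 77.9, 74.4 and 61.3 CPM in controls and at 35.1, 34.6 and 37.8 CPM after IL-1β. The third control was lower than the others, yet remained well above every IL-1β sample. From 71.2 ± 8.76 CPM to 35.8 ± 1.76 CPM (SD, n = 3 each), the log2 fold change was -0.99 (standard error 0.10, 95% interval -1.20 to -0.78, edgeR adjusted p = 7.1e-08).

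Foxa2 (Entrez 15376, chromosome 2, 148042877 to 148046969, minus strand), which also governs fasting lipid metabolism, was the most abundant FOXA transcript. Its levels were 94.7, 96.3 and 103.7 CPM in controls and 93.4, 88.9 and 85.4 CPM after IL-1β. The groups were separate by a narrow gap. The log2 fold change was -0.14 (standard error 0.079, 95% interval -0.30 to 0.025, edgeR adjusted p = 0.313), so a decrease of up to 18.9% and an increase of up to 1.76% both lie within the interval.

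Foxa1 (Entrez 15375, chromosome 12, 57540632 to 57546121, minus strand), the founding member of the forkhead family in liver, was the scarcest of the 3. It stood at 8.08, 6.80 and 8.46 CPM in controls and 5.88, 6.05 and 6.04 CPM after IL-1β, from 55 to 86 counts per sample. All IL-1β values were below all controls, but the second control was close to them. The log2 fold change was -0.37 (standard error 0.23, 95% interval -0.84 to 0.093, edgeR adjusted p = 0.348), and at this depth a change of that size was not resolved.

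The 3 Foxa transcripts were also compared with each other within each sample, where their shares and ratios do not depend on scaling. Summed, they gave 181, 178 and 173 CPM in controls and 134, 129 and 129 CPM after IL-1β. Foxa3 made up 43.1%, 41.9% and 35.3% of that sum in controls and 26.1%, 26.7% and 29.3% after IL-1β. Foxa2 made up 52.4%, 54.3% and 59.8% in controls and 69.5%, 68.6% and 66.1% after IL-1β, while Foxa1 kept to between 3.83% and 4.88%. The log2 ratio of Foxa3 to Foxa2 was -0.47 ± 0.25 in controls and -1.32 ± 0.13 after IL-1β (SD, n = 3 each), a difference of -0.84 without overlap (p = 0.1 by exact two-sided permutation, the lower bound at this sample number, and 0.2 after adjustment over 4 ratios). The log2 ratio of Foxa3 to Foxa1 differed by -0.61, also without overlap and with the same exact p of 0.1, and that of Foxa2 to Foxa1 by 0.23 with overlap (exact permutation p = 0.2). None of these can reach 0.05 with 3 samples per group.

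**Figure D2:**
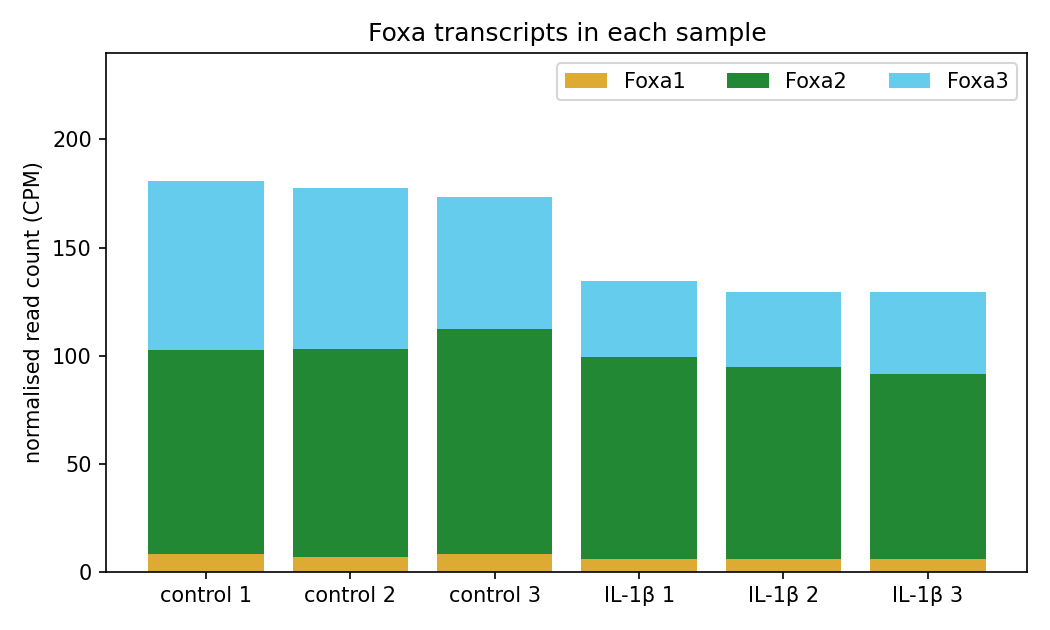
Levels of Foxa1, Foxa2 and Foxa3 in CPM, stacked to the summed Foxa level of each sample, for the 3 control and the 3 IL-1β samples. The Foxa3 share was 35.3% to 43.1% in controls and 26.1% to 29.3% after IL-1β, and the Foxa2 share was larger in every IL-1β sample than in any control.

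Onecut2 (Entrez 225631, chromosome 18, 64340364 to 64398488, plus strand) had the highest level of the 8. It stood at 230, 299 and 258 CPM in controls and 217, 228 and 218 CPM after IL-1β. The second control was the highest sample and the first control lay close to the IL-1β samples. From 262 ± 34.4 CPM to 221 ± 5.70 CPM (SD, n = 3 each), the log2 fold change was -0.25 (standard error 0.078, 95% interval -0.41 to -0.085, edgeR adjusted p = 0.036). This call depended on which samples were used. Without control replicate 2 the log2 fold change was -0.14 (edgeR adjusted p = 0.335). The call was lost as well without control replicate 3 (0.0521) or IL-1β replicate 1 (0.150), 2 (0.0832) or 3 (0.140), where the estimate stayed between -0.26 and -0.23. It was kept without control replicate 1 (-0.33, edgeR adjusted p = 0.000542).

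Onecut1 (Entrez 15379, chromosome 9, 74861921 to 74889647, plus strand) lay near the detection limit, with 13, 8 and 10 counts in controls and 7, 13 and 3 after IL-1β. The groups overlapped, and the IL-1β samples alone covered the whole range. The log2 fold change was -0.37 with a 95% interval from -1.62 to 0.88 (edgeR adjusted p = 0.792), and without IL-1β replicate 3 it was 0.041, so no direction can be given. The log2 ratio of Onecut2 to Onecut1 differed between groups by 0.29 with overlap (exact permutation p = 0.7), and by -0.25 without IL-1β replicate 3. The third member of the family, Onecut3, had 0 counts.

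Comparison of these levels with those of other genes has a limit in the gene models. The GENCODE 3′ end lies 2134 nt beyond the model in the table for Onecut1, 2499 nt for Onecut2 and 3742 nt for Prox1, against at most 7 nt either way for the other 5. Over 15430 matched genes with a count, 12.8% had a 3′ end more than 1000 nt beyond the model. The Onecut2 transcript also holds 4 runs of 12 or more A, all outside its last 500 nt, where an oligo-dT primer could bind, against 1 in Prox1 and none in the other 6. Of the windows of 75 nt in the last 500 nt, 28.4% were shared between Onecut1 and the overlapping gene Gm20649, and none were shared for the other 7. The part of these features in the levels was not tested, since the counting tool is not given in the sources used here.

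Prox1 (Entrez 19130, chromosome 1, 190121777 to 190170680, minus strand) stood at 16.2, 17.2 and 14.5 CPM in controls and 9.09, 7.97 and 8.27 CPM after IL-1β. The lowest control exceeded the highest IL-1β sample by a wide margin. From 15.95 ± 1.351 CPM to 8.44 ± 0.576 CPM (SD, n = 3 each), the log2 fold change was -0.92 (standard error 0.17, 95% interval -1.28 to -0.56, edgeR adjusted p = 0.000402). Prox1 is also a lymphatic endothelial factor, and of the 10 endothelial markers Kdr and Clec4g were called lower and Lyve1 higher, at the summed levels given above, and their part in the value of Prox1 was not tested. The antisense gene Prox1os and Gm28172 overlap Prox1 and are not rows of the table, and whether counting used strand is not given in the sources used here. Its paralog Prox2 had 35 counts in all samples together and was not tested.

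Gata4 (Entrez 14463, chromosome 14, 63198915 to 63245260, minus strand) stood at 7.61, 9.94 and 9.07 CPM in controls and 7.70, 7.88 and 6.88 CPM after IL-1β. The first control lay among the IL-1β samples. The log2 fold change was -0.25 (standard error 0.21, 95% interval -0.68 to 0.19, edgeR adjusted p = 0.548), and the exact permutation test gave p = 0.3. Gata6, its paralog in liver and other endoderm, stood at 12.1, 13.5 and 13.8 CPM in controls and 8.66, 8.84 and 4.65 CPM after IL-1β. It was called lower with a log2 fold change of -0.84 (edgeR adjusted p = 0.0090), a call that was lost without IL-1β replicate 3 (-0.58, adjusted p = 0.0773). Whether Gata4 and Gata6 differed in their change was not tested. Gata2 and Gata3 had 7 and 9 counts in all samples together, and Gata1 and Gata5 had 0.

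**Figure D3:**
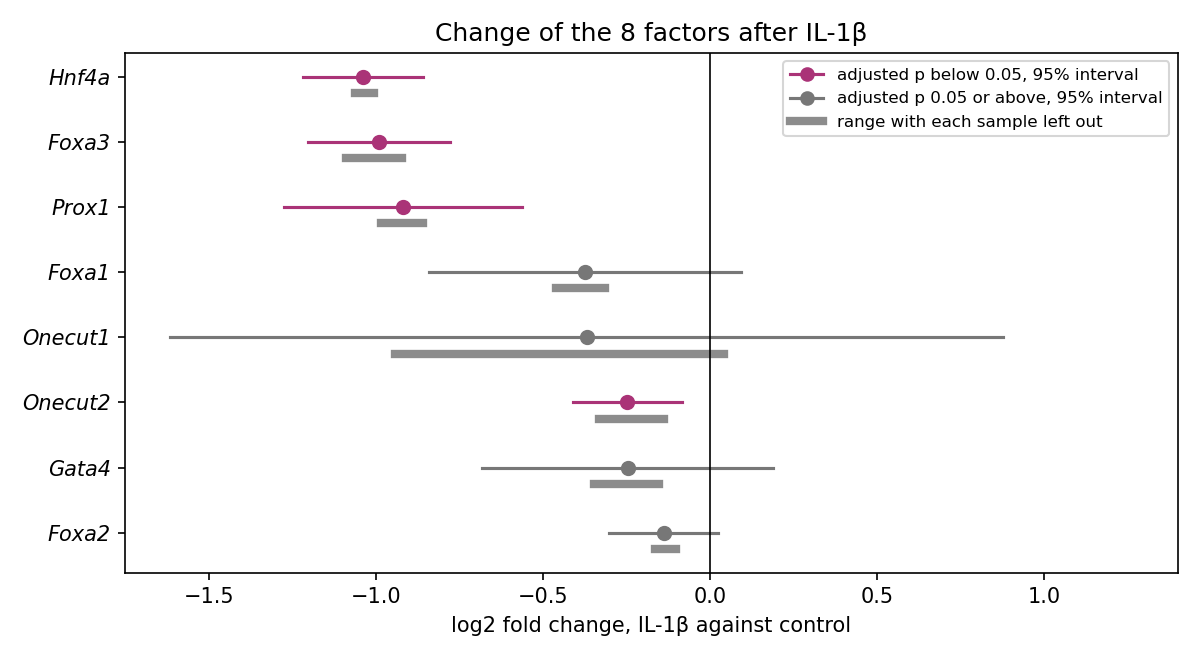
Log2 fold change of each factor after IL-1β against control, with its 95% interval from edgeR as a thin line and the range over the fits that leave out 1 sample each as a thick bar below it. The intervals of Hnf4a, Foxa3 and Prox1 lie far below 0, that of Onecut2 lies just below it, and those of the other 4 include it.

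By level the order in controls was Onecut2, Foxa2, Hnf4a, Foxa3, Prox1, Gata4, Foxa1 and Onecut1, under the limit of the gene models given above. Gata4 and Foxa1 overlapped in controls, and all other neighbours were separate in every sample. The order was the same after IL-1β, with all neighbours separate. The 8 levels summed to 521 to 595 CPM in controls and 405 to 418 CPM after IL-1β, and without Onecut2 to 285 to 297 CPM and 187 to 194 CPM. Hnf4a stood close to Foxa2 in controls, at 87.7 against 98.2 CPM, and well below it after IL-1β, at 42.7 against 89.2 CPM.

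Genes most like Hnf4a over the 6 samples were sought by the distance between log2 levels centred on each gene's mean, among 7979 genes of at least 10 CPM. The nearest were Ugt2b36, which encodes a glucuronosyltransferase (distance 0.116), the receptor phosphatase gene Ptprk (0.136) and Rbp4, which encodes the plasma carrier of retinol (0.136). Ugt2b36 went from 198 to 92.4 CPM, Ptprk from 262 to 134 CPM and Rbp4 from 1074 to 554 CPM. Nearest to Foxa3 were Slc25a23, a mitochondrial carrier (distance 0.130), Scd1, the stearoyl-CoA desaturase (0.155), and Hsd17b13, an enzyme of lipid droplets (0.206). Scd1 went from 480 to 226 CPM and Hsd17b13 from 230 to 107 CPM. Likeness of this kind over 6 samples mostly reads the size of the group difference.

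Other transcription factors enriched in liver moved in both directions. Of the 20 on the list 18 were tested, 3 were called lower, 2 higher and 13 were not called, with estimates from -0.30 to 0.28, and the median log2 fold change was -0.09. The 3 called lower are 16.7% of those tested, beside the background of 6.44%. Creb3l3, a membrane-bound factor of lipid metabolism, stood at 40.2, 42.2 and 27.5 CPM in controls and 5.13, 2.59 and 4.09 CPM after IL-1β, so that its log2 fold change was -3.23. Hhex, a homeodomain factor of early liver, changed by -0.38 (edgeR adjusted p = 0.013), and Nr1i2, the xenobiotic receptor PXR, chosen after its values were seen, by -0.77 (edgeR adjusted p = 0.033). Cebpb, a factor of the acute phase, rose by 0.74 on the log2 scale, from 80.7 ± 17.2 to 135.3 CPM, and Cebpa, its partner in mature hepatocytes, by 0.34 (edgeR adjusted p = 0.0142). The calls of Hhex, Cebpa and Nr1i2 were lost when some samples were left out, and that of Cebpb was kept in all such fits. Without control replicate 2 the edgeR adjusted p was 0.0650 for Hhex and 0.0598 for Cebpa, and without IL-1β replicate 3 it was 0.154 and 0.130. That of Nr1i2 was 0.0656 without control replicate 1, 0.0691 without control replicate 3, 0.187 when IL-1β replicate 2 was omitted and 0.118 when the third was.

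Coactivators and corepressors that work with these factors were mostly not called. Of 16 on the list 15 were tested, 1 was called lower and none higher. The 14 that were not called ranged from -0.40 to 0.46 and the list median was -0.0028, close to that of all genes. That 1 call is 6.67% of the 15, against 6.44% of all tested genes.

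Genes known as direct targets of HNF4A were lower in large part. Of 29 listed 25 were tested, 12 were called lower (48.0%, against 6.44% of all tested genes), 1 higher and 12 were not called, and the median log2 fold change was -0.28. Mttp, which loads lipid onto lipoproteins, stood at 26.9, 25.4 and 25.7 CPM in controls and 11.9, 10.9 and 14.1 CPM after IL-1β, so that its log2 fold change was -1.08. Apob, the protein of these particles, changed by -0.53, and Apoc2, the cofactor of lipoprotein lipase, by -0.80. Pklr, liver pyruvate kinase, was the exception and rose by 0.77 on the log2 scale. The bile acid genes Cyp7a1 and Cyp8b1 and the gluconeogenic genes G6pc and Pck1 had 4, 24, 23 and 33 counts in all samples together and could not be tested. They are named because they are the 4 untested targets.

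Of 14 targets of the FOXA factors 12 were tested, 7 were called lower (58.3%, against 6.44%), 1 higher and 4 were not called, and the median log2 fold change was -0.36. Igfbp1, an insulin-regulated binding protein of growth factors, stood at 274, 278 and 220 CPM in controls and 56.9, 61.7 and 65.3 CPM after IL-1β, so that its log2 fold change was -2.07. Cpt1a, the entry step of fatty acid oxidation, changed by -0.79 and Ttr, the thyroxine carrier transthyretin, by -0.35. Afp, a marker of fetal liver that is largely silent in adult hepatocytes, went the other way, from 15.03, 15.22 and 19.45 CPM to 42.9, 54.0 and 46.5 CPM, and its log2 fold change was 1.53 (edgeR adjusted p = 1.6e-09). Of 8 ONECUT1 targets 5 were tested, with Hnf4a and Ttr called lower and Afp higher, and a median of -0.14. The HNF4A and FOXA lists share 5 genes. Over the 3 lists together and without the 8 factors themselves, 39 different genes were listed and 35 tested. Of these 16 were called lower (45.7%, against 6.44% of all tested genes), 2 higher and 17 not at all, with a median log2 fold change of -0.28. All target genes were read from the same 6 samples as the factors, many are also hepatocyte products, and their relation to the level of any factor was not tested.

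**Figure D4:**
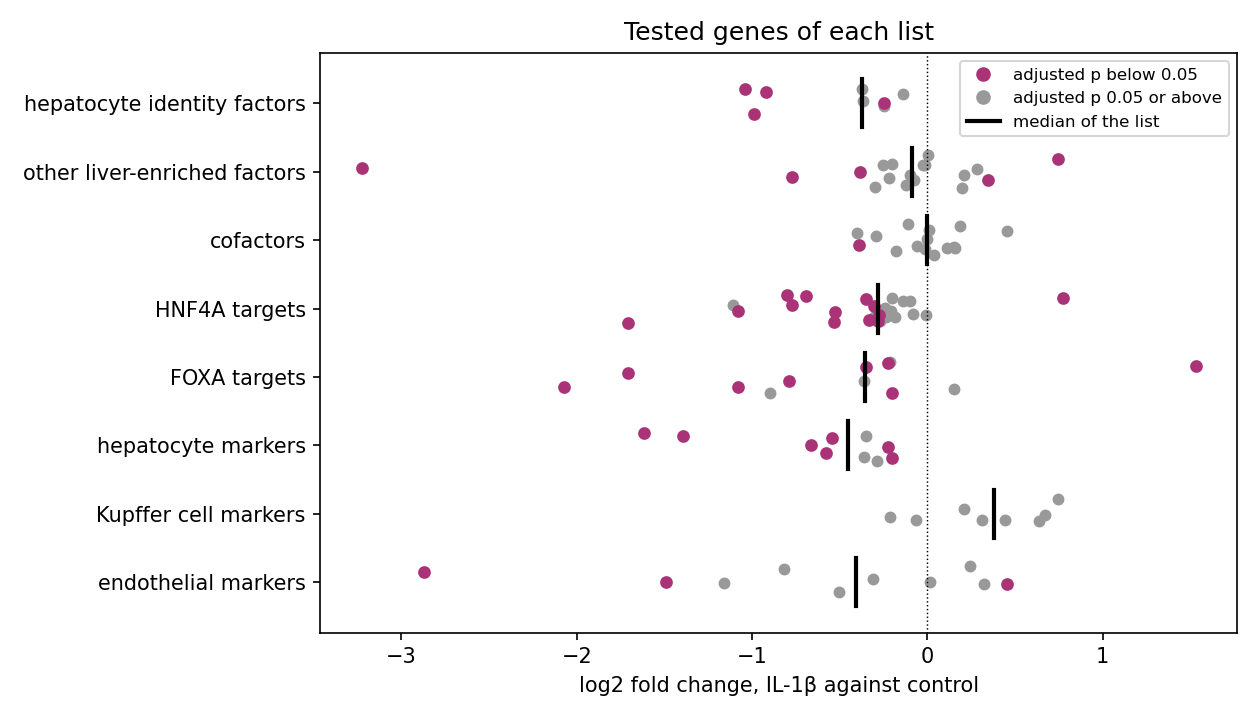
Log2 fold change after IL-1β of every tested gene in the lists of identity factors, other factors, cofactors, HNF4A targets, FOXA targets, and hepatocyte, Kupffer cell and endothelial markers, with called genes in colour and the median of each list as a vertical bar. The median of the HNF4A targets lies at -0.28, that of the FOXA targets at -0.36 and that of the cofactors at -0.0028, and Creb3l3 lies at -3.23.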

How the data were processed

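Libraries of 6 primary hepatocyte samples were made by the QuantSeq 3′ mRNA method and read as single-end reads of 75 nt. The authors aligned the reads with Bowtie2, per the labels to mm10 (GRCm38), and deposited raw read counts per gene, the only values used here. Their normalised values, fold changes and p-values were left out. The counting tool is not given in the sources used here.

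Counts were tested with edgeR 4.0.16 under R 4.3.3 (filterByExpr, TMM, quasi-likelihood test, Benjamini-Hochberg adjustment over 11657 genes, threshold 0.05). Ratios between paralogs had 0.5 added to each count and were compared by an exact permutation test. The quasi-likelihood test, and not the permutation test, was first tried on simulated data. The alternatives were DESeq2 1.42.0, limma 3.58.1 on log2(CPM + 1), edgeR's exact test, other scalings and filters, a replicate block, a threshold of 0.01 and leaving out each sample. Leaving out Rn45s was added after the data were seen.

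The 8 factors and all gene lists were chosen with earlier results of these data known. Genes named are the 8 factors, paralogs with a count, up to 4 called genes of each list with the smallest adjusted p, the 3 most abundant of each marker list, and the 3 genes most like Hnf4a and Foxa3. Exceptions are stated where they occur, and some genes that the rule selects are not reported here. Gene models came from GENCODE M21 and promoter sequences from RefSeq, where windows of 6 of the 8 factors were searched. Gata4 had no window, and Onecut2 was left out of the search.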

Additional observations from a re-analysis of the deposited data

How the results depend on the processing

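Hnf4a, Foxa3 and Prox1 were called lower under every alternative run, and whichever sample was omitted. For Hnf4a the log2 fold change ranged from -1.09 to -1.004 over all of them. Onecut2 (-0.25) was not called at a threshold of 0.01, and it ranged from -0.33 to -0.14 with each sample left out. Onecut1 ranged from -0.94 to 0.041 with each sample left out and had no value where 10 counts were required in every sample. Foxa1, Foxa2 and Gata4 were not called under any alternative. At 0.01, 996 genes were called, 459 lower and 537 higher, with 7 HNF4A targets and 1 of the other liver-enriched factors called lower. The latter count was 1 to 3 with each sample left out, and 1 without IL-1β replicate 3. The endothelial gene Eng, with a log2 fold change of 0.016, changed sign with upper-quartile scaling (-0.013) and total counts (-0.039), and ranged from -0.048 to 0.12 with each sample left out. The causes were not tested, except that a stricter threshold makes fewer calls.

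The labels do not say that replicate numbers pair samples, and the main test was therefore unpaired. Deviations of samples with the same replicate number correlated by 0.075, 0.027 and -0.0050. With 3 samples per group this does not settle whether they pair. With the replicate number as a block 1671 genes were called against 1563 without, and 4 factors were still called lower (Hnf4a -1.04, Onecut2 -0.24). Factors under about 10 CPM had standard errors of 0.21 to 0.60 on the log2 scale, which limits what could be called.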

Other observations

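Genes of fetal liver and bile duct did not move together. Of 8 fetal and progenitor genes 3 were tested, and Afp was the only call. Igf2, Gpc3 and Cd24a had 2, 9 and 6 counts in all samples together, and H19 and Dlk1 had 0. Sox9, a factor of bile duct and progenitor cells, stood at 136, 128 and 138 CPM in controls and 148, 158 and 158 CPM after IL-1β, without overlap and with an edgeR adjusted p of 0.0519. It was called in 6 of 11 alternative settings on all samples, among them DESeq2 with an adjusted p of 0.0414. Of the 6 fits that leave out a sample, 1 called it. Spp1, which encodes osteopontin, fell from 190 ± 1.95 CPM (SD, n = 3) to 82.7 CPM, a log2 fold change of -1.20.

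Among 10 endothelial markers 2 were called lower and 1 higher. Clec4g, a lectin of liver sinusoids, had a log2 fold change of -2.87 from 5.80 ± 1.32 CPM to 0.765 CPM, and Kdr, the VEGF receptor, one of -1.49 from 4.55 to 1.62 CPM. The lowest IL-1β sample of Clec4g had 3 counts, the detection limit. Lyve1, the hyaluronan receptor of sinusoidal and lymphatic endothelium, had 0.45 (edgeR adjusted p = 0.027), a call lost without control replicate 1 (0.0965) or 3 (0.0807) and without IL-1β replicate 2 (0.137) or 3 (0.0851). Cdh5 and Eng, which all endothelium carries, were not called. The 7 markers not called ranged from -1.16 to 0.32 on the log2 scale, and the median of the 10 was -0.41. None of the 3 stellate markers tested was called, and the most abundant, Dcn, stood at 18.4 CPM in controls and 20.3 CPM after IL-1β.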
